A study of Mus musculus with 10 samples.

Results

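A total of 629 open chromatin windows that lie in exons, untranslated regions (UTRs), non-coding exons or at transcript ends (TTS), and that were found in all 4 groups of MC3T3-E1 cells, are described here. They are windows of 125 bp of the list for untreated cells whose annotation is neither promoter, intron nor intergenic, and which have a window starting within 62 bp in each of the other 3 lists. The untreated list holds 26230 windows, 14722 of them found in all lists by the same limit, and 1158 with such an annotation. MC3T3-E1 is a mouse osteoblast line, and open chromatin was read by ATAC-seq, which relies on a transposase that inserts adapters into accessible DNA. The groups are TNFa+BMP4 (each factor at 10 ng/ml), TNFa, BMP4 and none, with 2 libraries each, and 2 libraries of sonicated DNA were the authors' background. All cells were held in 2.5% serum first. The sample labels give 3 h for TNFa, whereas the treatment protocol has TNFa for 30 min before BMP4 for 3 h. The titles of the TNFa libraries alone carry p65, for a reason not given, so each comparison with that group assumes that they were made like the others. Nothing in the labels says that the 2 libraries of a group came from separate cultures, and the p-values thus cover library spread alone, possibly technical.

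Most accessible sites of a cell lie at the starts of genes or in distal elements such as enhancers. An open site inside an exon or at a transcript's end can be the continuation of an open start site into the first exon, or a distal element that happens to lie in transcribed sequence and may serve a neighbouring gene. TNFa, an inflammatory cytokine, acts through NF-kB (with its p65 subunit, encoded by Rela) and AP-1. BMP4, a bone morphogenetic protein, acts through SMAD proteins and promotes osteoblast differentiation. In bulk samples, fewer cells with an open site and less opening per cell cannot be told apart.

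The windows fell into 5 annotation classes, with 185 in 5' UTRs, 101 in coding exons, 70 in non-coding exons, 72 in 3' UTRs and 201 at transcript ends. Such windows were shared by all 4 lists in 54.3% of cases, against 71.3% of promoter, 48.0% of intron and 49.2% of intergenic windows of the untreated list. By class, 62.1% of 5' UTR windows were shared, 56.8% of transcript-end windows, 54.3% of non-coding exon windows, 46.5% of 3' UTR windows and 45.5% of coding exon windows. In 596 of 629 cases the annotation class was the same in all 4 lists, and 124 windows had identical coordinates. The limit of 62 bp fell between a coding exon window of Ipmk, shifted by 62 bp and kept, and windows of Ppp1r3e, 4930505N22Rik and Noct, shifted by 63 bp and left out. They were annotated to 588 genes, of which 38 held more than 1, and chromosome 11 carried 69 of them, against 1275 of all 14722 shared windows. By RefSeq (GRCm38.p6, the same assembly as mm10), 548 windows belonged to protein-coding genes, 66 to long non-coding RNAs and 11 to miRNA genes.

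Levels are given in CPM, the tags of a window per 1000000 tags in all tested windows of the library after TMM scaling. By distance to the nearest gene start, 300 windows (47.7%) lay within 1000 bp and 329 lay farther. In 5' UTRs 93.5% were near, with a median distance of 243 bp, whereas 2.78% of 3' UTR windows and 21.4% of transcript-end windows were. First exons held 249 of all windows and last exons 120. The nearest start belonged to a gene other than the annotated one in 189 cases (30.0%). This was so for 61.1% of 3' UTR windows and 53.2% of transcript-end windows, but for 1 of the 5' UTR windows. Another window of the untreated list started within 500 bp in 33.9%, and a promoter window within 1000 bp in 22.3%. A window is therefore named below by the transcript of its annotation. Where its values are given, the gene with the nearest start is added if it differs. A transcript-end window can lie past the end of the transcript that names it.

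RefSeq holds a promoter sequence of 300 bases for 32851 starts, and 34 of the windows overlapped one. Among the 34 promoter sequences they overlapped, 21 held a GC box (GGGCGG, on either strand), against 35.7% of all promoter sequences. A CCAAT box (CCAAT) was in 10 of them, against 37.4% of all, and an AP-1 site (TGANTCA) in 0, against 7.81%. These motifs do not overlap in their letters, and a match is only a description of the sequence. A stretch of 30 bases is shown for 4 windows annotated to exons outside UTRs that reach into such a sequence upstream of its start. Each window carries the exon annotation of 1 gene and overlaps a promoter sequence of the same or another gene. Whether the 30 bases themselves lie in the exon was not tested. The stretches are from GRCm38.p6 (RefSeq, 5′ to 3′ on the strand of the promoter's gene, motifs in capitals).
5031425E22Rik (chr5:23433419-23433448, minus): gcggtgtcggcagCCAATcggcgtctggtg
Chkb (chr15:89429486-89429515, plus): aagcgcgccgccgATTGGggATTGGctctg
Lipt2 (chr7:100159739-100159768, minus): gtcCCGCCCcggcgcgctcaccgatcgcgc
Pgm1 (chr4:99929768-99929797, plus): ccgaggccatccagctcatcgtacgcatcg
The 5031425E22Rik stretch, from a window annotated to an exon of a long non-coding RNA, holds a CCAAT box. The Chkb stretch holds a pair of them on the other strand, and the Lipt2 stretch holds a GC box on the other strand. The Pgm1 stretch holds none of the 3 motifs. The promoter belongs to C730034F03Rik for Chkb, to Gm51452 for Lipt2 and to BC062258 for Pgm1. The 3 windows with a motif are taken up again with their levels below.

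A further 11 windows were annotated to the ends of 10 miRNA genes, which are short enough for such a window to be near their start too. The 10 windows whose gene had a mature sequence lay 0 to 758 bp from the hairpin. Mature sequences are shown for the genes with the highest windows, for the gene whose hairpin the window overlapped (Mir3081) and for Mir29a, whose product is known to act on collagen transcripts. They are from RefSeq, 5′ to 3′, with the seed (bases 2 to 8) in capitals.
mmu-miR-3109-5p: aAUGGAUGcgaugguucccaugcu
mmu-miR-3109-3p: uAGGGCCAucucauccagaua
mmu-miR-6926-5p: uCAGUGGGgugagggaugguga
mmu-miR-6976-5p: cAGGGAAGuugagaggaaaauug
mmu-miR-6976-3p: aUCUCCCUcccaacuccccag
mmu-miR-3081-3p: uUGCGCUCcgaucucugagcugg
mmu-miR-29a-3p: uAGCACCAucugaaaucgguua
No seed was shared among the mature sequences shown here. The Mir3109 window lay 673 bp past the hairpin and averaged 240.1 CPM. With TNFa+BMP4 it held 366 and 267 CPM, with TNFa 239 and 255 CPM, with BMP4 312 and 132 CPM, and in untreated cells 224 and 127 CPM. Mir6976 had 2 windows, averaging 199 and 185 CPM, and Mir6926 had 1 at 204 CPM. The window over the Mir3081 hairpin averaged 24.6 CPM and that past Mir29a 12.9 CPM, so levels at miRNA ends differed widely. In Mir6976 the window closer to the hairpin held 229 and 244 CPM with TNFa+BMP4, 281 and 229 CPM with TNFa, 230.4 and 52.4 CPM with BMP4, and 267 and 61.9 CPM in untreated cells. Replicate 2 of the BMP4 and untreated groups was the low library of both the Mir3109 and this Mir6976 window.

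The libraries differed in ways that touch every result. Total tags, in units of 1000000, were 21.8 and 18.8 with TNFa+BMP4, 16.5 and 19.7 with TNFa, 26 and 27.9 with BMP4, against 30.1 and 29.1 in untreated cells, so each library with TNFa was shallower than each without. The tested windows held 601024 to 1602931 tags per library, and the windows described here 30496 to 63207 of them. Of the 629 windows, 628 passed the filter on low counts, among 14712 tested. A 3' UTR window of Zfp940, with 2 to 10 tags per library, did not. For the labelled cell type, 7 of 8 defining osteoblast genes had a window in the untreated list, among them Runx2 with 14 and Sp7 with 3, and Alpl had none. Of 20 haematopoietic marker genes 1 had a window, of 10 adipocyte genes 4, of 14 chondrocyte genes 8 and of 16 muscle and endothelial genes 5. Of the windows described here, 2 were at such genes, Sox6 and Sox9, both chondrocyte markers.

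In CPM, the median level of these windows lay between that of promoter and intron windows. Their median was 52.3 CPM, against 57.1 CPM for shared promoter windows, 42.3 CPM for intron and 40.4 CPM for intergenic windows. Near windows had a median of 64.5 CPM and far windows 45.7 CPM. Per 10000000 tags of a library, the median window held 22.2 tags over the 8 libraries and 1.7 in the sonicated background, a median ratio of 13.2. In the authors' deposited tables the median log2 enrichment over background of the same windows was 3.65 with TNFa+BMP4, 3.56 with TNFa, 3.88 with BMP4 and 3.68 in untreated cells. For all shared windows these medians were higher, at 3.73, 3.70, 4.03 and 3.91.

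The highest levels were in a pair of nearby windows in the last exon of Cst6 (chr19:5345813-5345937 and chr19:5345506-5345630), which encodes cystatin E/M, an inhibitor of cysteine proteases. The first of them held 681 and 683 CPM with TNFa+BMP4, 1007 and 610.1 CPM with TNFa, 627 and 522 CPM with BMP4, and 801 and 618 CPM in untreated cells. Both BMP4 libraries lay below both with TNFa+BMP4, and the other pairs of groups overlapped. A Camta2 transcript-end window near the start of Spag7 held 963 and 594 CPM with TNFa+BMP4, 790 and 361 CPM with TNFa, 990.4 and 383 CPM with BMP4, and 607 and 382 CPM in untreated cells. In every group its replicate 1 was the higher library. First-exon windows followed, at Tarbp2 (a partner of Dicer, 581 CPM on average), Sfxn3 (a mitochondrial serine carrier, 414 CPM), Slc35e4 (391 CPM), Brd2 (which binds acetylated histones, 320.3 CPM) and B4galt1 (a galactosyltransferase, 307 CPM).

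These high windows varied unequally between libraries. The Tarbp2 5' UTR window held 617 and 775 CPM with TNFa+BMP4, 790 and 598 CPM with TNFa, 697 and 184 CPM with BMP4, and 732 and 253 CPM in untreated cells. Replicate 2 of the BMP4 and untreated groups lay far below the other 6 libraries. The B4galt1 5' UTR window, by contrast, ranged over all 8 libraries only between 262 and 375 CPM. Of the highest coding exon windows, Tor1aip1 (near Tor1aip2) and Laptm4a, a lysosomal membrane protein, were likewise lowest in those 2 libraries. The third, in Fhl2, a LIM-domain cofactor, ran from 158 to 257 CPM, and lies 29637 bp from the nearest start, that of AI597479. Next among the non-coding exons was Ogg1, a DNA repair glycosylase, at 281 CPM, among 3' UTRs Faim2 (near Bcdin3d) at 248 CPM, and among transcript ends Mrpl58 (near Atp5h) at 295 CPM and Mir3109.

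In the Chkb window (choline kinase beta, with the pair of CCAAT boxes), levels were 233 and 68.3 CPM with TNFa+BMP4, 160 and 41.4 CPM with TNFa, 229 and 38.1 CPM with BMP4, and 91.6 and 45.4 CPM in untreated cells. The 5031425E22Rik window held 237 and 206 CPM with TNFa+BMP4, 221 and 147 CPM with TNFa, 262 and 48.1 CPM with BMP4, and 182 and 38.9 CPM in untreated cells. Both were lower in replicate 2 of every group. The Lipt2 window (lipoyltransferase, with the GC box) had 97.3 and 17.9 CPM with TNFa+BMP4, 38.7 and 23.6 CPM with TNFa, 93.5 and 62.4 CPM with BMP4, and 22.7 and 33.9 CPM in untreated cells. Its highest library with TNFa+BMP4 exceeded the lowest by more than any pair of group means differed.

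Replicates of a group differed widely over all these windows. The median absolute log2 difference between the 2 libraries of a group was 0.61 with TNFa+BMP4, 0.70 with TNFa, 1.08 with BMP4 and 0.79 in untreated cells, close to the 0.61, 0.69, 1.05 and 0.78 of all tested windows. With BMP4, 340 of 628 windows (54.1%) differed more than 2-fold between replicates, and with TNFa+BMP4 167 (26.6%). In the near windows the difference had a direction. Replicate 1 was the higher library in 66.7% of near windows with BMP4 and in 66.7% in untreated cells, against 50% of far windows with BMP4 and 50.3% in untreated cells.

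The share of each library's tags in tested windows that fell in the windows described here was compared across groups. It was 5.09% and 4.73% with TNFa+BMP4, 5.07% and 4.47% with TNFa, 5.15% and 3.94% with BMP4, against 4.90% and 4.00% in untreated cells. The 95% Wilson interval was 5.04 to 5.14 for the first of these and 3.91 to 3.97 for the lowest, covering counting error only. The lowest shares were those of replicate 2 in the BMP4 and untreated groups, and the groups overlapped. With TNFa, alone or with BMP4, the share averaged 4.84% ± 0.298, and without it 4.50% ± 0.619 (SD, n = 4 each; exact permutation test, two-sided, p = 0.343, adjusted p = 0.817 over 22 such tests). With BMP4 it averaged 4.73% ± 0.556, and without it 4.61% ± 0.482 (SD, n = 4 each; exact permutation test, two-sided, p = 0.743). The smallest p that 4 libraries against 4 allow is 0.0286. Leaving out replicate 2 of the untreated and BMP4 groups, chosen after seeing the data, turned the TNFa difference to -0.186 percentage points. Only replicate 1 is then left without TNFa, against both replicates with it, and replicate 2 had the lower share in every group. This difference therefore mixes TNFa with replicate number.

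Most of the variation in this share lay in the near windows. Near windows took 3.04% and 2.76% with TNFa+BMP4, 3.01% and 2.50% with TNFa, 3.05% and 1.91% with BMP4, against 2.80% and 1.92% in untreated cells. Far windows took 2.05% and 1.97% with TNFa+BMP4, 2.07% and 1.97% with TNFa, 2.10% and 2.04% with BMP4, against 2.10% and 2.07% in untreated cells. The near share thus spanned 1.91% to 3.05% and the far share 1.97% to 2.10%. In far windows the mean with TNFa was 2.01% ± 0.0533 and without it 2.08% ± 0.0317 (SD, n = 4 each; exact permutation test, p = 0.114, adjusted p = 0.629). By class, the 5' UTR share with TNFa was 1.60% ± 0.0976, and without it 1.42% ± 0.296 (SD, n = 4 each; exact permutation p = 0.343). For 3' UTRs these means were 0.562% ± 0.0344 and 0.563% ± 0.0417 (SD, n = 4 each; exact permutation p = 0.914). None of the 22 tests passed after adjustment.

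**Figure D1:**
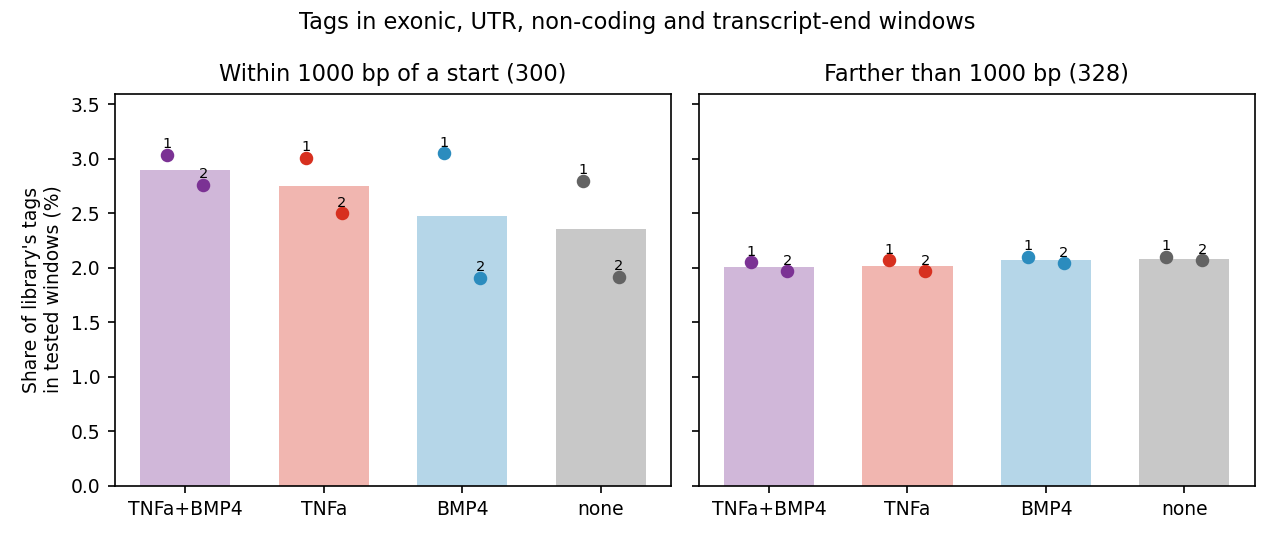
Share of each library's tags in tested windows (percent) that fell in the windows within 1000 bp of a gene start (left) and in those farther away (right), by group; points are libraries with their replicate number and bars are means of 2. Near shares run from 1.91% to 3.05%, with replicate 2 of BMP4 and none lowest, whereas far shares stay between 1.97% and 2.10%.

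Single windows were tested with limma over all 14712 windows in 8 comparisons. With Benjamini-Hochberg adjustment 0 of 628 windows passed an adjusted p of 0.05 in any of them, and 0 of 14712 windows (0.0%) did, with 0 of the 628 also under precision weights (voom). In a fit with the replicate number as a block, 4 of the 628 windows passed for TNFa over without, those of Sult5a1, St6gal1, Sox6 and Lzic (limma, adjusted p = 0.0400, 0.0401, 0.0414 and 0.0465), as did 122 of 14712 windows (0.829%), and 0 of the 628 passed in the other comparisons. The labels do not say what a replicate number stands for, and the values given with these windows below are from the fit without the block. A site that opens from nothing or closes fully is outside these comparisons, since every window had to be in all 4 lists. At an unadjusted limma p under 0.05, the 4 libraries with TNFa against the 4 without gave 5 higher and 11 lower windows, against 1.76% of all tested windows higher and 2.63% lower. All 16 were far from a start, which is 4.88% of far windows, against 7.48% of all far windows tested. BMP4 gave 1 higher and 5 lower, against 0.632% and 0.476% of all windows. The interaction of both factors gave 0, and 0.0% of all windows. In both directions together these are 2.55% of the windows for TNFa and 0.955% for BMP4, near or below the background. Most windows named below for a comparison were taken by limma p among those whose libraries did not overlap in that comparison.

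Among the 5 comparisons of 2 groups, TNFa+BMP4 against untreated cells gave the most windows at an unadjusted limma p under 0.05, 6 higher and 6 lower, against 1.13% and 1.41% of all windows. TNFa against untreated cells gave 2 higher and 3 lower, against 0.415% and 0.605%. BMP4 against untreated cells gave 0, against 0.163% higher and 0.034% lower. Adding BMP4 to TNFa (TNFa+BMP4 against TNFa) gave 0 higher and 2 lower, against 0.156% and 0.122%, and TNFa+BMP4 against BMP4 gave 2 higher and 3 lower, against 0.714% and 0.904%. Comparisons that use the same libraries are not independent of each other.

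Separation of the libraries gave a similar picture. With TNFa all 4 libraries lay above the 4 without in 11 windows and below them in 13, against 1.8% and 2.63% of all tested windows. With BMP4 this was so in 2 and 7 windows, against 0.761% and 0.877%.

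Windows with more accessibility in all libraries with TNFa were led by a transcript-end window of 1700126H18Rik (chr5:66165870-66165994), 13978 bp upstream of the start of Rbm47, which encodes an RNA-binding protein. It held 74.0 and 68.3 CPM with TNFa+BMP4 and 75.8 and 87.5 CPM with TNFa, against 31.2 and 30.6 CPM with BMP4 and 33.6 and 17.3 CPM in untreated cells. Its 4 libraries with TNFa all lay above the 4 without, at least 68.3 against at most 33.6 CPM. The log2 fold change with TNFa over without was 1.41 ± 0.37 (SE; limma, adjusted p = 0.856).

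At the end of Sult5a1, a sulfotransferase gene (nearest start Mir7080), a window (chr8:123141938-123142062) held 181 and 127 CPM with TNFa+BMP4 and 212 and 112 CPM with TNFa, against 83.5 and 35 CPM with BMP4 and 52.1 and 39.6 CPM in untreated cells. A second window of the same transcript end, chr8:123142273-123142397, held 69.9 and 93.0 CPM with TNFa+BMP4 and 128 and 44.9 CPM with TNFa, against 50.1 and 21.2 CPM with BMP4 and 57.1 and 22.3 CPM in untreated cells. Only the first was separated by TNFa, with a log2 fold change of 1.58 ± 0.44 (SE; limma, adjusted p = 0.856). The 3' UTR window of Exoc3l4 (chr12:111430882-111431006) lies 11717 bp upstream of Tnfaip2, a gene named for its induction by TNFa. It held 111 and 72.8 CPM with TNFa+BMP4 and 145 and 63.8 CPM with TNFa, against 59.0 and 21.8 CPM with BMP4 and 41.2 and 30.2 CPM in untreated cells, a log2 fold change of 1.33 ± 0.47 (SE; limma, adjusted p = 0.856). Its lowest library with TNFa was only slightly above the highest without. In the last exon of the non-coding RNA A730020M07Rik, 39.7 and 40.3 CPM with TNFa+BMP4 and 45.5 and 23.6 CPM with TNFa stood against 18.9 and 11.9 CPM with BMP4 and 19.3 and 9.36 CPM in untreated cells. This was a log2 fold change of 1.23 ± 0.40 (SE; limma, adjusted p = 0.856).

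Lower accessibility with TNFa was seen in a coding exon of Sox6 (exon 10 of 17, chr7:115579041-115579165), a transcription factor of cartilage formation. The window lies 222506 bp from the nearest start. It held 9.59 and 8.96 CPM with TNFa+BMP4 and 11.8 and 9.46 CPM with TNFa, against 24.5 and 58.7 CPM with BMP4 and 21.9 and 46.1 CPM in untreated cells. Libraries with TNFa had 7 to 8 tags there and those without 22 to 94, and the groups did not overlap. The log2 fold change was -1.63 ± 0.42 (SE; limma, adjusted p = 0.856). The transcript end of Lzic (chr4:149496766-149496890) held 26 and 16.8 CPM with TNFa+BMP4 and 15.2 and 9.46 CPM with TNFa, against 61.2 and 39.9 CPM with BMP4 and 49.6 and 36.0 CPM in untreated cells. This was a log2 fold change of -1.41 ± 0.37 (SE; limma, adjusted p = 0.856).

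At the end of St6gal1, a sialyltransferase gene (nearest start Rtp1), 32.9 and 29.1 CPM with TNFa+BMP4 and 15.2 and 41.4 CPM with TNFa stood against 66.8 and 158 CPM with BMP4 and 49.6 and 189 CPM in untreated cells. Replicate 2 of BMP4 and of untreated cells was the high library here, the reverse of the near windows. The last exon of Prlr, the prolactin receptor (nearest start Agxt2), held 5.48 and 10.1 CPM with TNFa+BMP4 and 10.1 and 9.46 CPM with TNFa, against 13.4 and 49.9 CPM with BMP4 and 19.3 and 43.9 CPM in untreated cells. Windows of Hsd17b14 (near Bcat2), Gm6559, Tagln2, Smlr1 and a non-coding exon of the kinesin gene Kif21b (near Mroh3) had log2 fold changes of -1.48, -1.42, -0.99, -0.96 and -1.22, each with an unadjusted limma p under 0.05 and an adjusted p above it. At Gm6559 and Kif21b the libraries with TNFa and without overlapped. Gm6559 was separated for TNFa against untreated cells, and Kif21b for TNFa+BMP4 against untreated cells. The libraries with TNFa are also the shallower ones, and the part of depth in these windows was not tested.

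**Figure D2:**
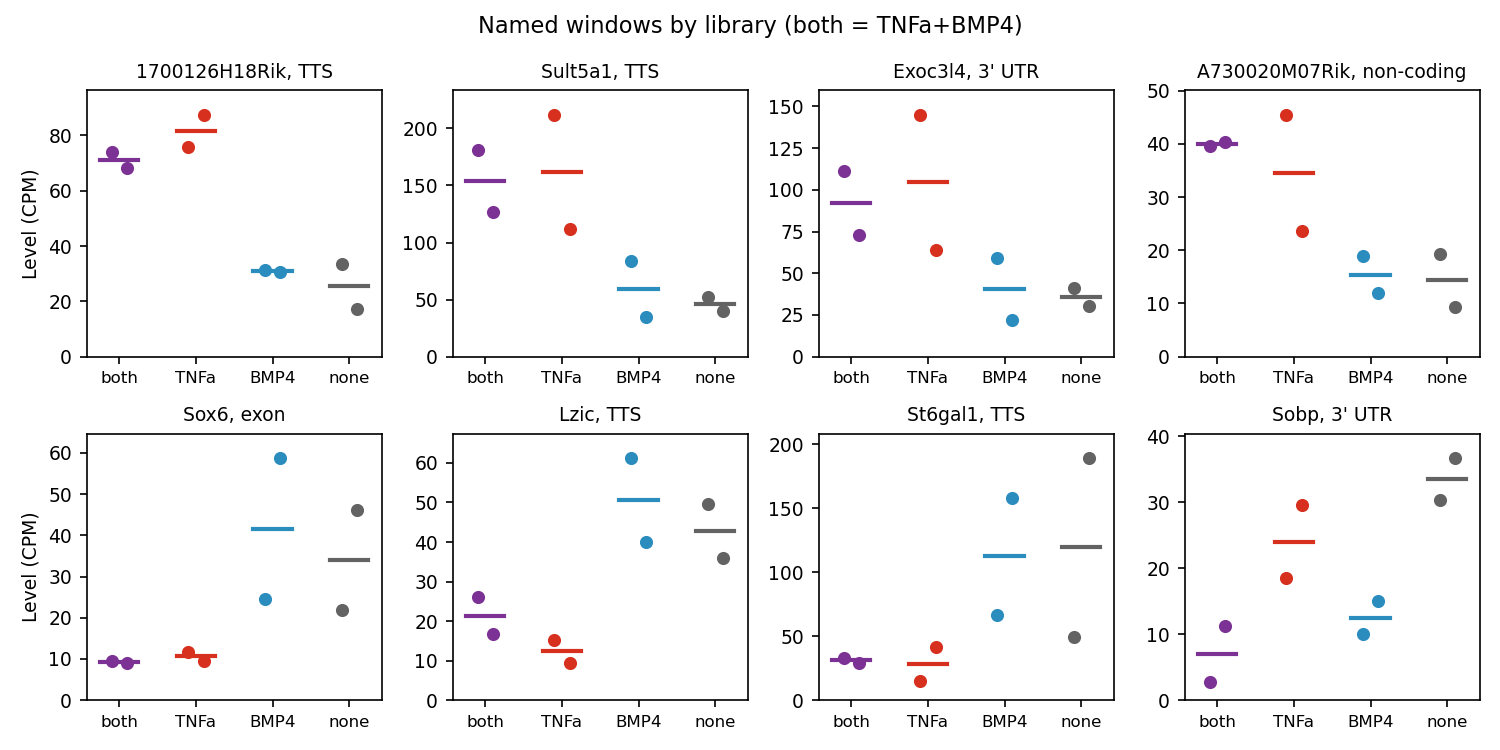
Level in CPM (linear axes from 0) of 8 named windows; points are libraries, lines are means of 2, and both stands for TNFa+BMP4. In the upper row every library with TNFa lies above every library without, as in 1700126H18Rik (68.3 to 87.5 against 17.3 to 33.6 CPM); in Sox6, Lzic and St6gal1 every library with TNFa lies below; the Sobp window is lower in every library with BMP4 than in every library without.

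With BMP4 over without, the lowest limma p belonged to the last exon of Sobp (3' UTR, chr10:43003425-43003549, nearest start Gm5079). It held 2.74 and 11.2 CPM with TNFa+BMP4 and 10.0 and 15 CPM with BMP4, against 18.5 and 29.6 CPM with TNFa and 30.3 and 36.7 CPM in untreated cells. Its 4 libraries with BMP4 all lay below the 4 without. The log2 fold change was -1.49 ± 0.43 (SE; limma, adjusted p = 1.0), and between TNFa+BMP4 and untreated cells it was -2.15 ± 0.60 (SE; limma, adjusted p = 0.898). The window is shallow, with 2 to 51 tags per library.

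Other windows lower in every BMP4 library included those at Inpp5k (an inositol phosphatase, near Myo1c) and Snx33 (a sorting nexin). The Snx33 5' UTR window held 43.9 and 43.7 CPM with TNFa+BMP4 and 53.4 and 59.9 CPM with BMP4, against 101 and 99.3 CPM with TNFa and 70.6 and 84.3 CPM in untreated cells. It was the only near window among those with an unadjusted limma p under 0.05 for either factor, and its replicates differed little, with a log2 fold change of -0.80 ± 0.34 (SE; limma, adjusted p = 1.0). A 3' UTR window of Ube2n, a ubiquitin-conjugating enzyme of NF-kB signalling (nearest start Mir3058), held 17.8 and 25.8 CPM with TNFa+BMP4, 38.7 and 40.2 CPM with TNFa, 32.3 and 41.8 CPM with BMP4, and 66.4 and 72.0 CPM in untreated cells. Untreated cells were highest there and the combined treatment lowest, a log2 fold change of -1.60 ± 0.49 (SE; limma, adjusted p = 0.898) between them.

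Higher with BMP4 than in untreated cells were the end of Cdsn (112 and 94.2 against 29.4 and 58.3 CPM), the 3' UTR of Synrg near Dusp14 (43.4 and 59.3 against 12.6 and 28.8 CPM), the Lipt2 exon and the end of Ttyh3 near Lfng (83.5 and 35.6 against 30.3 and 20.9 CPM). Erp27, an endoplasmic reticulum protein, went the other way at its transcript end, with 15.6 and 61.2 CPM with BMP4 against 99.2 and 98.7 CPM in untreated cells. Between BMP4 and untreated cells, none of the windows described here had an unadjusted limma p under 0.05. The 4 libraries with BMP4 lay above the 4 without at 2 windows, the ends of Olfml3 and of Col1a2, a type I collagen chain. That Col1a2 window held 35.6 and 31.4 CPM with TNFa+BMP4 and 46.7 and 29.3 CPM with BMP4, against 28.6 and 24.8 CPM with TNFa and 21.9 and 19.4 CPM in untreated cells. Its log2 fold change was 0.55 ± 0.34 (SE), so the separation was small beside the error.

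In TNFa+BMP4 against untreated cells, the end of Cpne5 near Rab44 held 125 and 85.1 CPM with TNFa+BMP4 against 39.5 and 22.3 CPM in untreated cells, a log2 fold change of 1.72 ± 0.67 (SE; limma, adjusted p = 0.898). Against TNFa alone, TNFa+BMP4 was higher in the 3' UTR of Ephb2, a receptor tyrosine kinase, near Lactbl1 (69.9 and 72.8 against 27.0 and 41.4 CPM), at the end of B430319G15Rik near Plod2, a collagen lysyl hydroxylase (45.2 and 24.6 against 18.5 and 4.73 CPM), and in the 5' UTR of Slc25a45 (171 and 139 against 138 and 47.3 CPM). It was lower at Sobp and Snx33, at the end of the agouti gene a near Ahcy (6.85 and 34.7 against 42.1 and 67.4 CPM) and in Gm16157 near Pgpep1l (6.85 and 8.96 against 11.8 and 44.9 CPM). Of these, Snx33 and Sobp had an unadjusted limma p under 0.05, with log2 fold changes of -1.16 ± 0.49 and -1.68 ± 0.60 (SE), and none had an adjusted p under it. Tags were few at Gm16157 (5 and 8 with TNFa+BMP4 against 7 and 38 with TNFa) and B430319G15Rik (33 and 22 against 11 and 4).

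Medians over all windows described here lay slightly above 0, but several changed sign with the scaling or without single libraries. With TNFa over without, 363 of 628 (57.8%) lay above 0 with a median log2 fold change of 0.08, against 49.6% of all tested windows and a median of -0.00. By position, 200 of 300 near windows lay above 0 with a median of 0.18, whereas 163 of 328 far windows did, with a median of -0.01. For all tested windows, the near ones had a median of 0.06 and the far ones -0.07. By class the medians were 0.16 for 5' UTRs, 0.13 for coding exons, 0.15 for non-coding exons, -0.06 for 3' UTRs and 0.02 for transcript ends. Without replicate 2 of the untreated and BMP4 groups the near median was -0.03, with 128 of 300 above 0, and the far median -0.06. The direction of the near windows therefore rests on those 2 libraries. Over near and far windows together, 275 of 628 lay above 0 without those 2 libraries, with a median of -0.04. Scaled to total tags, the median of all tested windows was -0.15, that of the 628 was -0.06 with 282 above 0, and the near and far medians were 0.04 and -0.15.

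**Figure D3:**
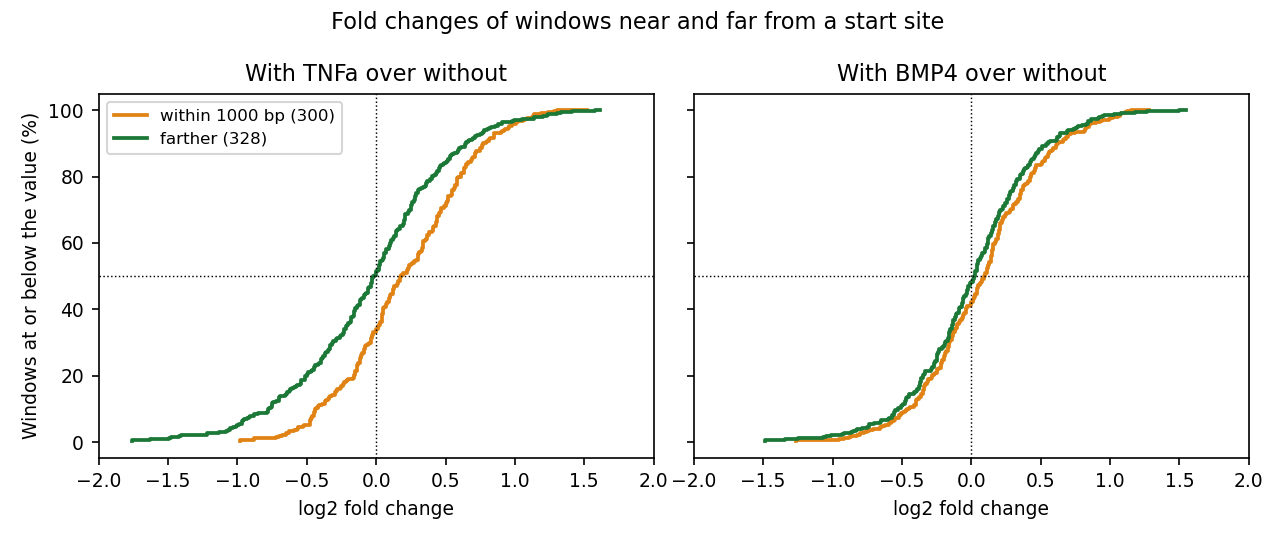
Cumulative share (percent) of windows at or below each log2 fold change, with TNFa over without (left) and with BMP4 over without (right), for the 300 windows within 1000 bp of a gene start and the 328 farther away. The near curve of the TNFa panel crosses 50% at 0.18 and the far curve at -0.01; both BMP4 curves cross close to 0 (0.10 and 0.03).

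For BMP4 over without, 347 of 628 (55.3%) lay above 0, against 49.3% of all tested windows, and the median was 0.05. The near median was 0.10 and the far median 0.03. In the other comparisons, 362 (57.6%) lay above 0 for TNFa+BMP4 over untreated cells, against 48.9% of all windows, 365 (58.1%) for TNFa over untreated cells, against 49.1%, and 342 (54.5%) for BMP4 over untreated cells, against 49.0%. For TNFa+BMP4 over TNFa it was 351 (55.9%), against 50.7%, for TNFa+BMP4 over BMP4 345 (54.9%), against 50.1%, and for the interaction 318 (50.6%), against 53.8%. For TNFa over untreated cells the median of 0.10 became -0.04 scaled to total tags (289 above 0, with all tested windows at -0.15), -0.05 without replicate 2 of untreated cells (284 above 0) and -0.05 without that library and replicate 2 of BMP4 (287 above 0). For TNFa+BMP4 over BMP4 the median of 0.08 became -0.07 scaled to total tags (291 above 0, with all tested windows at -0.15). It was -0.11 without replicate 2 of untreated cells and of BMP4 (273 above 0). For BMP4 over untreated cells 0.06 became -0.09 without replicate 2 of untreated cells (278 above 0) and -0.11 without replicate 1 of BMP4. The median of the interaction, 0.01 with all libraries, was 0.13 without replicate 2 of untreated cells and -0.06 without that library and replicate 2 of BMP4. Between TNFa+BMP4 and untreated cells the medians were 0.33 for near and 0.01 for far windows, and 0.07 and -0.00 without the 2 libraries named above.

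Windows were assigned to the genes of each list by their nearest start. Among genes of the signalling pathways, NF-kB targets had 5 of these windows, at Ccl20, Lif, Rela, Tnip1 and near Tnfaip2, from a list of 41 genes. None had an adjusted p under 0.05, and 4 lay above 0 with TNFa over without, with a list median of 0.40, against 0.45 for all 61 shared windows of the listed genes and -0.00 for all windows tested. The window in the 3' UTR of Lif, a cytokine of the interleukin 6 family, held 209.7 and 174 CPM with TNFa+BMP4, 189 and 66.2 CPM with TNFa, 206 and 74.3 CPM with BMP4, and 150.4 and 64.8 CPM in untreated cells. At the end of Rela, which encodes p65, the values were 37.0 and 63.8 CPM with TNFa+BMP4, 35.4 and 92.2 CPM with TNFa, 23.4 and 28.1 CPM with BMP4, and 47.9 and 66.3 CPM in untreated cells. At Lif both TNFa+BMP4 libraries lay above both untreated ones while the other pairs of groups overlapped, and at Rela the BMP4 libraries were lowest. For Tnip1, an inhibitor of NF-kB, and Ccl20, a chemokine, the log2 fold changes with TNFa over without were -0.06 ± 0.48 and 0.09 ± 0.54 (SE). Without replicate 2 of the untreated and BMP4 groups, that of Lif was -0.26, against 0.40 with all libraries.

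AP-1 and immediate early genes also had 5, at Dusp1, Ier2, Ier5l, Klf6 and Myc, from 50 genes, with 4 above 0 with TNFa over without. Their median was 0.49, against 0.01 for all 143 shared windows of the listed genes and -0.00 for all windows tested. The coding exon window of Dusp1, a MAP kinase phosphatase, held 204 and 202 CPM with TNFa+BMP4, 214 and 148 CPM with TNFa, 195 and 72.4 CPM with BMP4, and 191 and 80.7 CPM in untreated cells. The low libraries were again replicate 2 of BMP4 and of untreated cells. At the end of Klf6, a zinc finger factor, all 4 libraries with TNFa (37.0, 24.6, 32.0 and 16.6 CPM) lay above 3 of the 4 without (28.9, 14.4, 14.3 and 11.5 CPM), and the log2 fold change was 0.64 ± 0.40 (SE). The Myc, Ier2 and Ier5l windows had log2 fold changes of 0.49, 0.40 and -0.03. Without replicate 2 of the untreated and BMP4 groups, the log2 fold change was -0.02 at Dusp1, against 0.63 with all libraries, and -0.18 at Ier2. A transcript-end window of Per1, also on the list, had its nearest start at Hes7 and was not counted.

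BMP/SMAD targets had 2 by nearest start, the end of Dlx2, a homeobox gene, and a window near Smad7, an inhibitory SMAD, at the end of Ctif. The Dlx2 window held 155 and 116 CPM with TNFa+BMP4, 91.0 and 137 CPM with TNFa, 121 and 369.5 CPM with BMP4, and 95.8 and 289 CPM in untreated cells. Its groups overlapped, with a log2 fold change with BMP4 over without of 0.30 ± 0.51 (SE), and that of the Smad7 window was 0.04 ± 0.40 (SE). The median of both was 0.17, against 0.25 for all 79 shared windows of the listed genes and -0.01 for all windows tested. A transcript-end window of Id4, also on the list, had its nearest start at A330033J07Rik and was not counted.

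Osteoblast genes had 4 windows, a pair in Col1a2 and 1 each in Col5a2, a fibrillar collagen, and Kazald1, a secreted protein of the insulin-like growth factor binding family. All 4 lay above 0 with BMP4 over without, with a median of 0.43, against 0.05 for all 100 shared windows of the listed genes and -0.01 for all windows tested. None had a limma p under 0.05, adjusted or unadjusted, and only the window at the end of Col1a2 was separated by BMP4. With TNFa over without, 2 of 4 lay above 0. The Kazald1 window held 119 and 150.1 CPM with TNFa+BMP4, 84.2 and 130.1 CPM with TNFa, 158 and 310.2 CPM with BMP4, and 132 and 185 CPM in untreated cells. Values with TNFa and without overlapped there, as they did in each Col1a2 window. The cell death and survival genes Bad (a promoter of apoptosis) and Fadd (an adaptor of death receptors) had 1 each, with log2 fold changes with TNFa over without of -0.70 ± 0.42 and 0.02 ± 0.59 (SE). Transcript-end windows of Bax (nearest start Ftl1) and Bcl2l1 (nearest start Cox4i2), also on that list, were not counted.

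Genes with more than 1 window allow neighbours to be compared. Of the 38 such genes, 31 had their windows within 1000 bp of each other, and in 27 all windows had the same sign with TNFa over without. Fancc, a DNA repair gene, and Rcor2, a corepressor, had 3 each. The 3 Rcor2 transcript-end windows lay within 641 bp with log2 fold changes between 0.02 and 0.65. The one 7707 bp from the start held 68.5 and 43.7 CPM with TNFa+BMP4, 77.5 and 26 CPM with TNFa, 109 and 7.49 CPM with BMP4, and 90.8 and 10.1 CPM in untreated cells, so that its lowest and highest values were the 2 libraries of BMP4.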

How the data were processed

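The submitters' processing notes name the build mm10 and the tools HOMER 4.11, deepTools 3.5.1, Picard 2.25.1, Bowtie2 2.5.1 and Trimmomatic 0.39; no source used here names a shift for the transposase. Per the file headers, the authors called windows on both replicates against both background libraries, and deposited log2 enrichments with adjusted p-values. Columns headed as tag counts hold regularised log2 values that the authors fitted per list. They were solved back to counts with 4 fitted constants per list, and 99.3272% to 99.9968% of values came out within 0.1 of a whole number. Because the deposited unit is log2, the test was limma 3.58.1 (R 4.3.3; trend, TMM scaling, log2 of count plus 2, group as the only term), on windows with at least 10 tags in at least 2 libraries; fold changes understate the change of low windows. Shares were tested by exact permutation with SciPy 1.17.1. The code was tested on simulated data. Windows, naming rule and gene lists were chosen with earlier results of these data known. Named are, per comparison, the separated windows with the smallest limma p (4 higher, 4 lower), the highest levels overall and per class, windows of 5 gene lists and those at the limit; Mir6976, Mir6926, Rcor2, Fancc, Tagln2, Smlr1, the second Sult5a1 window and the windows shown with sequences were added after their values were seen. A window that the rule names is not reported here. Alternatives concerned scaling, filter, pseudocount, weights, matching, replicate number and left-out libraries.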

Additional observations from a re-analysis of the deposited data

How the results depend on the processing

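None of these windows passed an adjusted p of 0.05 in any of the 8 comparisons under the alternative scalings, filters, pseudocounts, weights and matching limits, or without any 1 library (0 to 0). In a fit that adds a replicate block, 4 windows passed for TNFa over without (Sult5a1, St6gal1, Sox6 and Lzic, with log2 fold changes of 1.58, -1.76, -1.63 and -1.41 and limma adjusted p of 0.0400, 0.0401, 0.0414 and 0.0465), as did 122 of all 14712 windows tested, and 0 in the other comparisons. Same-numbered libraries deviated together in all 6 pairs of groups (r of 0.104 to 0.761), a hint from the data, since the labels do not say what a number stands for. The difference in the share of tags with TNFa over without, 0.343 percentage points, was -0.007 over all tags, -0.065 for far windows and 0.158 to 0.560 without any 1 library. It was -0.186 without replicate 2 of the untreated and BMP4 groups (chosen after seeing the data), which leaves replicate 1 alone without TNFa. For BMP4, 0.118 became -0.013 for far windows and -0.086 to 0.381 without 1 library. Medians of the log2 fold change without 1 library ran from -0.11 to 0.23 for BMP4 over untreated cells, from -0.11 to 0.31 for TNFa+BMP4 over BMP4 and from -0.16 to 0.15 for the interaction. Without 1 or those 2 libraries, log2 fold changes changed sign for Lif (-0.26 to 0.77), Tnip1 (-0.40 to 0.28), Ccl20 (-0.59 to 0.51), Dusp1 (-0.02 to 0.99), Ier2 (-0.18 to 0.78), Ier5l (-0.23 to 0.15), Col1a2 (-0.09 to 0.26), Col5a2 (-0.83 to 0.29) and Fadd (-0.47 to 0.84) with TNFa, and for Dlx2 (-0.09 to 0.70) and Smad7 (-0.22 to 0.33) with BMP4. The cause was not tested. Replicate spread, with 2 libraries a group, limits what these comparisons can show.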
